A study of Homo sapiens with 30 samples.

Results

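The 56 genes described here drive the passage of a cell through G2 phase and mitosis. They were taken by symbol from the deposited expression table of 26801 genes, and all 56 were found. RNA sequencing was done on A549, an established human lung adenocarcinoma cell line, in 30 libraries that form 10 groups of 3. RSRP1 knockout cells without iR were sequenced after the magnetic exposure, labelled 2 H (KOA_EX), and without it (KOA_NE). Knockout cells labelled iR were sequenced exposed and unexposed, both with D3 (iR_KOA_D3_EX and iR_KOA_D3_NE) and without it (iR_KOA_EX and iR_KOA_NE). Wild-type cells were sequenced as the same iR sets, with D3 (iR_WTA_D3_EX and iR_WTA_D3_NE) and without it (iR_WTA_EX and iR_WTA_NE). The labels do not explain iR or D3, and both are kept as names. Every wild-type group carries iR, so iR could be compared in the knockout alone. Which stretch of RSRP1 was removed and how many clones were used are not given either.

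A dividing cell enters mitosis when cyclin B bound to the kinase CDK1 is switched on by CDC25 phosphatases. Polo and Aurora kinases then build the spindle, condensins compact the chromosomes, and kinetochores attach them to microtubules under the watch of the spindle assembly checkpoint. The anaphase-promoting complex with CDC20 ends the phase by marking cyclin B and securin for destruction, and kinesins with the midzone proteins complete cytokinesis. The messenger RNAs of these genes peak together late in the cell cycle, through CCAAT boxes bound by NF-Y and a cell cycle genes homology region (CHR) bound by MuvB complexes with B-MYB, in concert with the factor FOXM1.

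RSRP1 stood at 2.09 to 7.95 FPKM in the 18 knockout libraries and at 37.4 to 63.4 FPKM in the 12 wild-type libraries, so the 2 sets did not overlap. FPKM are fragments per kilobase of transcript scaled to each library's mapped fragments. The 4 epithelial markers and the 5 NRF2 targets listed for A549 each reached 1 FPKM in at least 1 library. EPCAM was the lowest of the epithelial markers, at 0.402 to 1.85 FPKM (median 1.12). None of the 3 alveolar type II markers reached 1 FPKM in any library. Of the markers of other cells, the 2 immune genes found summed to 1.06 to 17.9 FPKM, the 2 endothelial genes to 0 to 1.29 FPKM and the 3 fibroblast genes to 0.443 to 3.74 FPKM. The immune sum was nearly all CD14 (1.05 to 17.9 FPKM), with PTPRC at 0.0411 FPKM or less. CDH5 and COL1A1 carried the other 2 sums, with PECAM1, PDGFRA and DCN at most at 0.0114, 0.0527 and 0.00807 FPKM. Depth was close to even, with 34620432 to 38939336 reads per library recovered from the steps between FPKM values, and the 56 genes rested on 158 to 35929 reads each per library. Whether the 3 libraries of a group came from separate cultures is not stated, so the p-values here weigh differences against the scatter of these libraries, which may be technical only. In bulk RNA, fewer cells in G2 and mitosis and less RNA per such cell cannot be told apart.

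The promoters of 6 of these genes are printed because they carry the letters of both promoter elements and belong to genes that behaved differently under the exposure. CCNB2, PLK1, CDC20 and KIF23 fell in exposed cells in 3 or more of the 5 backgrounds, CKS1B passed the test in none and CKS2 rose in all 5. Each stretch runs 5′ to 3′ on the gene's own strand, the plus strand for all 6, from 150 bases before to 30 bases after the RefSeq start of the gene (GRCh38.p14). Capitals mark TTTGAA, the letters of the homology region, and CCAAT, or their reverse complements TTCAAA and ATTGG.
CCNB2: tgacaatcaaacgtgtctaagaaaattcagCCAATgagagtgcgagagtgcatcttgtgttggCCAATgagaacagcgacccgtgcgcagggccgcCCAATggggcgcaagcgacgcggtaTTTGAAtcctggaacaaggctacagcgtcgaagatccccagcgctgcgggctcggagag
PLK1: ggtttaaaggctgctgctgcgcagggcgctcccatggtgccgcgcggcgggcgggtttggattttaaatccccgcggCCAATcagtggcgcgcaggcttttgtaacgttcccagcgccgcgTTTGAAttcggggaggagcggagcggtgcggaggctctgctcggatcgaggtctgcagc
CDC20: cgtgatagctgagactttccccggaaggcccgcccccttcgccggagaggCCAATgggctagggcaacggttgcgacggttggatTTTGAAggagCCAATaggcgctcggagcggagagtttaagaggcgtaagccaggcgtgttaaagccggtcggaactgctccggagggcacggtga
KIF23: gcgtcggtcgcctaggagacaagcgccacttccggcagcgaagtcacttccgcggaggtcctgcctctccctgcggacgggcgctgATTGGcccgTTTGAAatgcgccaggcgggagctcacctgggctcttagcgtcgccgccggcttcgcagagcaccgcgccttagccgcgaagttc
CKS1B: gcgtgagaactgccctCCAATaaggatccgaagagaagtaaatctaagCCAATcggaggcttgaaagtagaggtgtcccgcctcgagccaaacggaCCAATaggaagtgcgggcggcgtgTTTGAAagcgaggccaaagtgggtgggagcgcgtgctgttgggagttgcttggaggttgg
CKS2: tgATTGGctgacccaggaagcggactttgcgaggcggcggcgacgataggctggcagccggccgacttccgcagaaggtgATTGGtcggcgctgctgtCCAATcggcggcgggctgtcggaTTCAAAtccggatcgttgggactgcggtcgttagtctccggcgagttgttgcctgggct
The stretches lie at chr15:59104996-59105175 (CCNB2), chr16:23678739-23678918 (PLK1), chr1:43358831-43359010 (CDC20), chr15:69414199-69414378 (KIF23), chr1:154974531-154974710 (CKS1B) and chr9:89311045-89311224 (CKS2). TTTGAA or its complement begins 29 bases before the start in CCNB2, PLK1 and CKS2, 30 bases before it in CKS1B, 55 in KIF23 and 65 in CDC20. All 6 also hold CCAAT close to the start, at 54 bases before it in CCNB2 and CKS1B and at 52 in CKS2. CKS2, which rose, and CKS1B, which passed in no background, hold TTTGAA or its complement at nearly the same distance as CCNB2 and PLK1, which fell. That both elements stand beside different responses follows from how the 6 were picked. The part of these elements in the exposure differences was not tested.

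RefSeq promoter stretches of 250 bases before to 50 after the start were at hand for 49 of the 56 genes, and both strands were searched. TTTGAA was present in 36 of them (73.5%), against 4212 of 27305 promoters of the same length (15.4%). CCAAT was present in 38 (77.6%), against 35.7% of all promoters, and both motifs together in 30 (61.2%), against 6.08%. In 30 of the 36 genes with TTTGAA it lay between 60 bases before and 50 after the start. TTTAAA, a variant of the homology region that CCNB1 carries 30 bases before its start, was present in 16 promoters (32.7%), against 12.3% of all. The motifs were searched separately, so matches can share bases, and a match is a description of the letters and not of a bound site.

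Levels among the 56 genes spanned nearly 2 orders of magnitude on the per-length FPKM scale. The highest means over the 30 libraries belonged to CKS2 (223 FPKM), a small CDK-binding protein, to the topoisomerase TOP2A (108 FPKM), to the phosphatase CDC25B (102.5 FPKM), to CKS1B (95.9 FPKM), the sister protein of CKS2, and to cyclin B1, CCNB1 (82.1 FPKM). The lowest belonged to the spindle kinesin KIF15 (2.77 FPKM), CDC25C (4.62 FPKM), KIF14 (5.24 FPKM), the kinetochore kinesin CENPE (5.61 FPKM) and the spindle protein GTSE1 (6.67 FPKM). All 56 genes reached at least 1 FPKM in at least 3 libraries and entered the test. Together they took the largest share of all FPKM in iR_WTA_NE (0.662% ± 0.0083), then in iR_WTA_EX (0.639% ± 0.0151), and the smallest in iR_KOA_D3_NE (0.213% ± 0.0017, SD, n = 3 each). Of the 56 genes, 44 had their highest group mean in iR_WTA_NE and 7 in iR_KOA_NE, while 36 had their lowest in iR_KOA_D3_EX and 17 in iR_KOA_D3_NE.

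**Figure D1:**
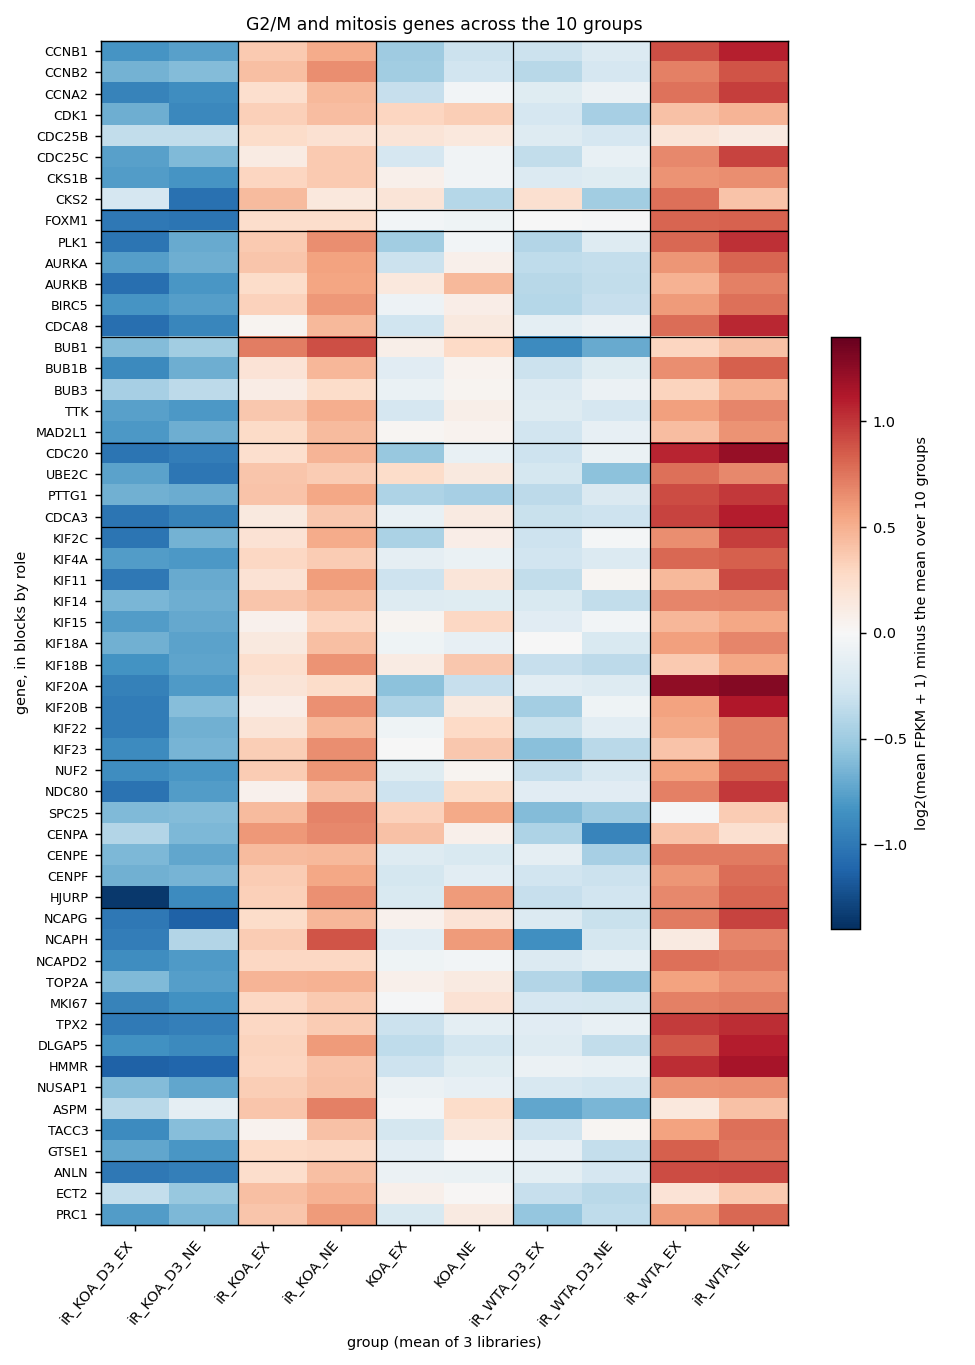
Log2(mean FPKM + 1) of each of the 56 genes in the 10 groups, minus the gene's mean over the groups; rows are genes in blocks by role, columns are groups of 3 libraries, red is above and blue below the gene's mean. The 4 columns with D3 are blue in nearly every row, deepest in the knockout, and the 4 iR columns without D3 are red in nearly every row.

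CDC25B and BUB3 varied least between groups. The ratio of the highest to the lowest group mean was 1.53 for CDC25B, which had 79.3 FPKM in iR_KOA_D3_EX and 121.5 FPKM in iR_KOA_EX, and 1.99 for BUB3. HMMR (5.37), KIF20B (5.36) and CDCA3 (5.29) varied most.

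The groups kept a similar order for most of the widely used markers of the phase. CCNB1 had exposed and unexposed means of 41.4 and 43.3 FPKM in iR_KOA_D3, 96.0 and 107 FPKM in iR_KOA, 52.0 and 59.8 FPKM in KOA, 59.7 and 64.5 FPKM in iR_WTA_D3 and 139 and 159 FPKM in iR_WTA. CDK1 had exposed and unexposed means of 18.0 and 15.3 FPKM in iR_KOA_D3, 37.4 and 40.1 FPKM in iR_KOA, 36.6 and 37.9 FPKM in KOA, 24.9 and 21.1 FPKM in iR_WTA_D3 and 39.7 and 41.6 FPKM in iR_WTA. For both genes the D3 groups were the lowest of their genotype and iR_WTA_NE was the highest group. FOXM1 had exposed and unexposed means of 16.6 and 16.4 FPKM in iR_KOA_D3, 41.0 and 40.9 FPKM in iR_KOA, 33.2 and 32.9 FPKM in KOA, 34.2 and 33.8 FPKM in iR_WTA_D3 and 61.2 and 61.5 FPKM in iR_WTA. MKI67 had exposed and unexposed means of 15.0 and 15.9 FPKM in iR_KOA_D3, 36.2 and 38.2 FPKM in iR_KOA, 29.2 and 34.1 FPKM in KOA, 24.9 and 24.8 FPKM in iR_WTA_D3 and 48.7 and 49.5 FPKM in iR_WTA. The exposed and unexposed means of FOXM1 were close in every background. CKS1B had exposed and unexposed means of 52.4 and 50.6 FPKM in iR_KOA_D3, 112 and 118 FPKM in iR_KOA, 95.2 and 87.9 FPKM in KOA, 79.4 and 80.4 FPKM in iR_WTA_D3 and 141 and 143 FPKM in iR_WTA. CKS2 had exposed and unexposed means of 179 and 102 FPKM in iR_KOA_D3, 286 and 233 FPKM in iR_KOA, 239 and 159 FPKM in KOA, 246 and 149.8 FPKM in iR_WTA_D3 and 359.7 and 277 FPKM in iR_WTA, the exposed mean being the higher one each time. Among the other genes at either end of the range, group means ran between 59.1 and 159 FPKM for TOP2A, between 1.11 and 4.28 FPKM for KIF15, between 2.11 and 9.16 FPKM for CDC25C, between 2.65 and 8.56 FPKM for KIF14, between 2.73 and 9.27 FPKM for CENPE and between 3.09 and 11.8 FPKM for GTSE1, lowest in a D3 group for all 6.

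The largest differences went with D3. All 56 genes were lower with D3 than without it in unexposed iR cells of both genotypes, past the test every time, and in neither genotype did any gene's 3 libraries with D3 overlap the 3 without. The median log2 difference on the log2(FPKM + 1) scale was -1.26 in the knockout and -1.06 in the wild type, against -0.06 and -0.01 over the 12086 genes tested. Over those genes, 34.5% were lower with D3 in the knockout and 26.3% in the wild type at an adjusted p of 0.05 (limma's moderated test on log2(FPKM + 1), Benjamini-Hochberg, two-sided). The groups did not overlap for 59.2% and 59.8% of them. Mitochondrially encoded genes took 28.5 to 30.8% of all FPKM in iR_KOA_D3_NE and 24.3 to 24.9% in iR_KOA_NE. With the libraries scaled without those genes all 56 were still lower in both genotypes, and 3338 of the 6267 calls over all genes in the knockout were higher with D3, against 2315 of 6485 with FPKM as deposited. Median-of-ratios scaling gave 3419 of 6349 and quantile normalization 3272 of 6311, again with all 56 lower.

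Cyclin B1, the partner that activates CDK1, had 43.9, 42.2 and 43.9 FPKM in knockout libraries with D3 and 108, 106 and 107 FPKM in those without. In wild-type cells it had 67.4, 61.7 and 64.3 FPKM with D3 and 157, 159 and 159.8 FPKM without. Every D3 library lay below every library without D3 of its genotype, at ratios of means of 0.406 and 0.407 (log2 difference -1.28, SE 0.036, adjusted p = 4.38e-19 in the knockout; log2 difference -1.29, SE 0.036, adjusted p = 8.00e-19 in the wild type). The kinase CDK1 itself had 16.5, 14.1 and 15.4 FPKM with D3 and 43.5, 43.0 and 33.8 FPKM without it in the knockout, where its log2 difference was -1.32, against -0.95 in the wild type. All 8 cyclins, CDK1 and CDK1 regulators fell in both genotypes. CCNA2 (cyclin A, -1.33) stood with CDK1 at the head of this group in the knockout, and CCNB2 (-1.11) and CDC25C (-1.05) followed CCNB1 in the wild type. CDC25B fell least of all 56 genes, with log2 differences of -0.56 in the knockout and -0.36 in the wild type.

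FOXM1, the transcription factor of the late cell cycle, had 16.1, 16.7 and 16.3 FPKM in knockout libraries with D3 and 40.1, 40.8 and 41.9 FPKM without. Wild-type libraries had 34.4, 33.9 and 33.0 FPKM with D3 and 61.8, 58.9 and 63.9 FPKM without. Its log2 differences were -1.27 (SE 0.047) and -0.85 (SE 0.047). MKI67, the coat protein of mitotic chromosomes used as a proliferation marker, had 15.9 ± 0.621 FPKM with D3 and 38.2 ± 2.03 without in the knockout, and 24.8 ± 0.734 with D3 and 49.5 ± 0.552 without in the wild type (SD, n = 3 each).

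The steepest falls in the knockout were in chromosome and kinetochore genes. NCAPG, a condensin subunit, had 5.01, 5.14 and 5.12 FPKM with D3 and 19.0, 18.3 and 14.9 FPKM without (log2 difference -1.59, SE 0.078, adjusted p = 6.10e-15). HJURP, the chaperone that loads the centromere histone CENPA, had 16.4, 16.3 and 16.3 FPKM with D3 and 49.1, 47.7 and 49.9 FPKM without (log2 difference -1.52, SE 0.034, adjusted p = 4.77e-21). In the wild type the steepest were KIF20A, the kinesin that brings Aurora B to the midzone, with 15.9, 15.3 and 15.7 FPKM with D3 and 45.0, 44.3 and 45.8 FPKM without (log2 difference -1.47, SE 0.055, adjusted p = 7.25e-17), and DLGAP5, a spindle protein (-1.45).

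The other roles fell with them. The 5 Polo, Aurora and chromosomal passenger genes lay between -1.38 and -1.26 in the knockout, led by BIRC5 (-1.38), CDCA8 (-1.37) and AURKB (-1.37). In the wild type PLK1 (-1.20), AURKA (-1.14) and CDCA8 (-1.14) led them. Among the 5 checkpoint genes BUB1, the kinase at unattached kinetochores, fell most in both genotypes (-1.39 in the knockout and -1.12 in the wild type), before TTK and BUB1B, and BUB3 fell least (-0.63 and -0.56). The 4 partners and substrates of the anaphase-promoting complex lay between -1.44 and -1.24 in the knockout and between -1.38 and -1.19 in the wild type, with CDC20 at -1.44 and -1.32.

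All 11 kinesins fell, between -1.36 (KIF18B) and -1.01 (KIF15) in the knockout, where KIF23 (-1.31) and KIF11 (-1.28) came next, and between -1.47 and -0.59 in the wild type, where KIF20B (-1.18) and KIF23 (-1.09) followed KIF20A. Of the 7 kinetochore and centromere genes, NUF2 (-1.42) and SPC25 (-1.31), subunits of the microtubule-binding NDC80 complex, followed HJURP in the knockout. CENPE (-1.19), CENPA (-1.15) and NDC80 (-1.14) led in the wild type. Condensin NCAPH (-1.30) and TOP2A (-1.26) followed NCAPG in the knockout, as TOP2A (-1.18) and MKI67 (-0.97) did in the wild type. HMMR, a spindle pole protein, had -1.49 in the knockout and -1.26 in the wild type, DLGAP5 -1.48 in the knockout, and TPX2, the activator of Aurora A, -1.31 and -1.14. The 3 cytokinesis genes fell in both, with ANLN (anillin) at -1.37 and -1.15, PRC1 at -1.22 and -1.16, and ECT2 at -1.01 and -0.74.

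**Figure D2:**
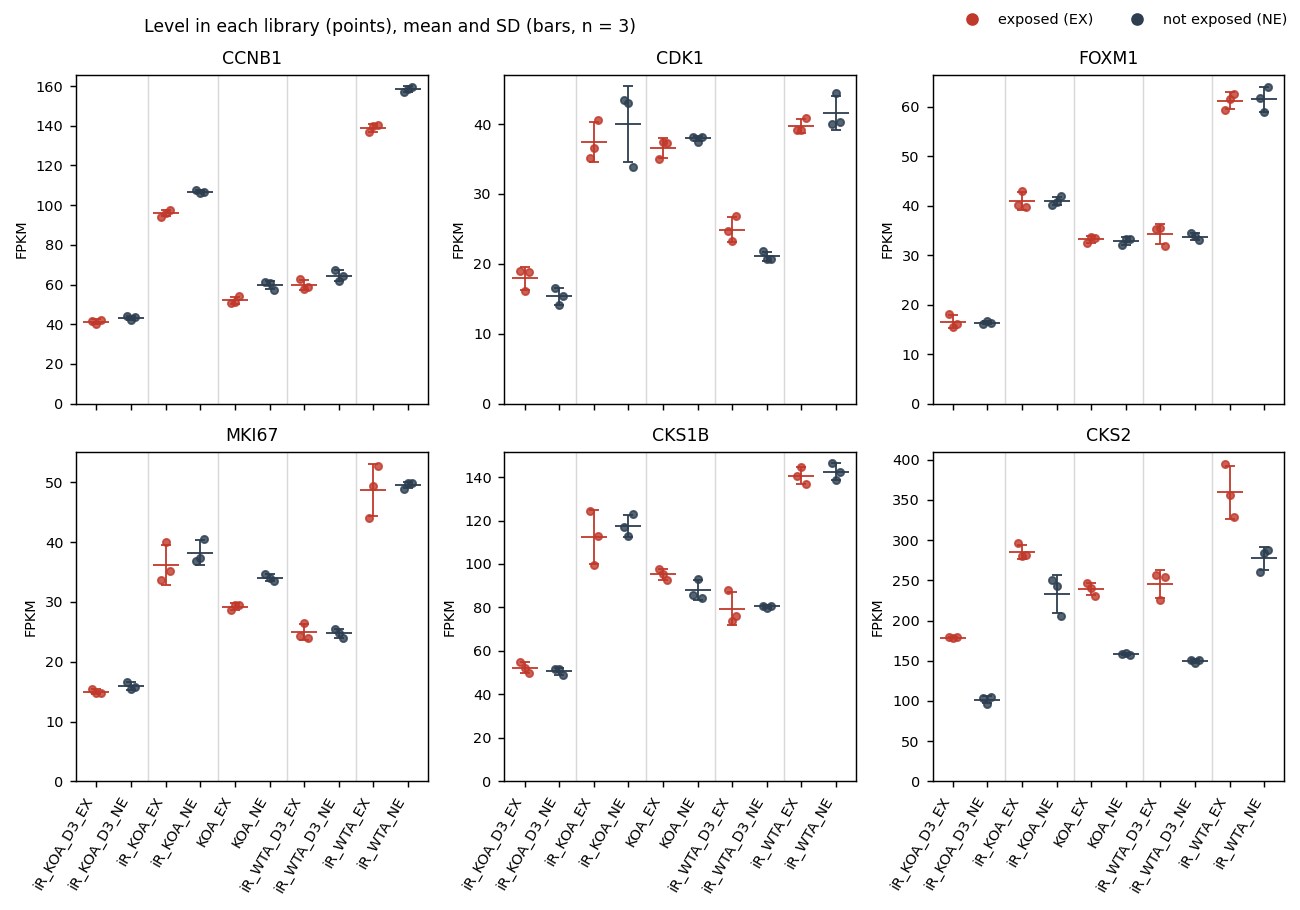
FPKM of CCNB1, CDK1, FOXM1, MKI67, CKS1B and CKS2 in each of the 30 libraries (points) with the mean and SD of each group (bars, n = 3); red groups were exposed and dark groups were not. All 6 genes are lower in each D3 group than in the iR group of the same genotype and exposure without D3, and the exposed libraries of CKS2 stand above its unexposed ones in all 5 backgrounds.

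The D3 difference was not the same size in both genotypes. The test of the difference between them (knockout minus wild type) passed for 25 of the 56 genes, 24 of them more negative in the knockout, against 12.3% of all genes more negative and 5.19% more positive. KIF18B (log2 difference -0.46, SE 0.10, adjusted p = 0.00205), SPC25 (log2 difference -0.45, SE 0.13, adjusted p = 0.0145), HJURP (log2 difference -0.44, SE 0.048, adjusted p = 2.41e-07), KIF15 (log2 difference -0.43, SE 0.091, adjusted p = 0.00138) and FOXM1 (log2 difference -0.42, SE 0.067, adjusted p = 4.58e-05) differed most in that direction. KIF20A was the exception, with the larger fall in the wild type (log2 difference 0.42, SE 0.077, adjusted p = 0.000289), and was added to the 5 after its value was seen. Over all genes 627 of 2119 calls were more positive. The count rests on the scaling and on single libraries: 12 genes passed under median-of-ratios scaling and 10 with libraries scaled without mitochondrially encoded genes, both with 1 of them more positive, while over all genes 965 of 2016 and 973 of 1987 calls were then more positive. Quantile normalization gave 21, 1 of them more positive, and 967 of 2052. It was 14 without replicate 2 of iR_KOA_D3_NE or replicate 1 of iR_WTA_D3_NE, 15 without replicate 1 of iR_WTA_NE, and 16 without replicate 2 of iR_KOA_NE or of iR_WTA_D3_NE.

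Most of the 56 genes were higher with iR. In unexposed knockout cells 49 of the 56 rose with iR, none fell and the other 7 had positive differences short of the test. The median log2 difference was 0.43, against -0.00 over all genes, of which 18.7% rose and 19.8% fell. For 51 genes the 3 iR libraries lay above the 3 libraries without iR, where 51.2% of all genes did not overlap in either direction. RSRP1 itself was also higher with iR in these knockout cells, at 7.63, 7.95 and 7.45 FPKM in iR_KOA_NE and 2.12, 2.70 and 2.46 FPKM in KOA_NE (log2 difference 1.34, SE 0.059, adjusted p = 6.10e-15), and its part in the result was not tested. This comparison and that of D3 in the knockout share the iR_KOA_NE libraries, so the 2 are not independent. Mitochondrially encoded genes took 24.3 to 24.9% of all FPKM in iR_KOA_NE and 27.2 to 29.7% in KOA_NE. Scaled without them 46 of the 56 rose and none fell, and 1252 of 4899 calls over all genes were higher, against 2259 of 4656 with FPKM as deposited.

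PTTG1, the securin that holds separase in check, had 50.1, 52.2 and 50.4 FPKM with iR and 24.8, 24.8 and 24.9 FPKM without (log2 difference 1.00, SE 0.051, adjusted p = 1.02e-13). The iR libraries all stood above the others, with a ratio of means of 2.05. CCNB2 had 69.8, 71.1 and 73.5 FPKM with iR and 37.1, 37.6 and 37.7 FPKM without (log2 difference 0.91, SE 0.041, adjusted p = 7.41e-15), and CCNB1 108, 106 and 107 FPKM with iR and 61.2, 61.0 and 57.2 without (log2 difference 0.83, SE 0.036, adjusted p = 6.66e-15). Neither gene's groups overlapped. DLGAP5 rose by 0.84, PLK1 by 0.69 and the kinetochore genes CENPF, CENPE and CENPA by 0.69, 0.65 and 0.60.

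CDK1 did not pass: it had 43.5, 43.0 and 33.8 FPKM with iR and 38.2, 37.4 and 38.2 FPKM without, overlapping groups with a log2 difference of 0.07 (SE 0.077, adjusted p = 0.511). The other genes short of the test were CDC25B (0.06), AURKB (0.10), KIF15 (0.01), NDC80 (0.14), SPC25 (0.17) and HJURP (0.05). Among the rest, FOXM1 rose by 0.31, MKI67 by 0.16, CKS1B by 0.42 and CKS2 by 0.55. All 5 checkpoint genes rose, led by BUB1 (0.63), TTK (0.43) and BUB1B (0.41). BIRC5 (0.51) and AURKA (0.50) followed PLK1, and CDC20 (0.58) and CDCA3 (0.25) followed PTTG1. KIF14 (0.63), KIF20A (0.58) and KIF18A (0.54) led the 10 kinesins that rose. TOP2A (0.36), NCAPD2 (0.33) and NCAPH (0.29) led the 5 chromosome structure genes. HMMR (0.56) and NUSAP1 (0.52) followed DLGAP5, and ANLN (0.51), ECT2 (0.47) and PRC1 (0.47) rose together.

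Knockout cells had lower levels of most of these genes than wild-type cells. In unexposed iR cells 44 of the 56 fell in the knockout and 5 rose (median log2 difference -0.27), and with D3 50 fell and 3 rose (median -0.53). Over all genes 37.4% were lower without D3 and 44.3% with it (65.3% and 69.1% either way), at medians of -0.06 and -0.11. The all-gene median with D3 depended on the scaling. It was -0.025 under median-of-ratios scaling, -0.032 under quantile normalization and -0.005 with libraries scaled without mitochondrially encoded genes. The libraries did not overlap for 42 genes lower and 5 higher without D3, and for 50 lower and 3 higher with it, where 68.3% and 75.2% of all genes did not overlap. Mitochondrially encoded genes took 24.3 to 30.8% of all FPKM in the 6 unexposed iR knockout libraries and 20.1 to 23.4% in the 6 wild-type ones. Scaled without those genes, 38 members fell and 6 rose without D3, and 47 fell and 3 rose with it. Over all genes with D3 the calls were then 3995 higher of 7872, against 3002 of 8352 with FPKM as deposited, 3781 of 7932 under median-of-ratios scaling and 3721 of 7956 under quantile normalization, the last 2 also with 47 members lower and 3 higher.

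KIF20A differed most without D3, with 20.8, 21.5 and 22.1 FPKM in the knockout and 45.0, 44.3 and 45.8 FPKM in the wild type (log2 difference -1.04, SE 0.055, adjusted p = 8.73e-15). With D3 it had 10.3, 10.1 and 9.16 FPKM in the knockout and 15.9, 15.3 and 15.7 FPKM in the wild type (log2 difference -0.62, SE 0.055, adjusted p = 2.53e-10). Every knockout library lay below every wild-type library in both settings. HMMR, which binds spindle microtubules, had 26.5, 28.1 and 20.7 FPKM in the knockout and 39.9, 48.3 and 41.7 FPKM in the wild type (log2 difference -0.77, SE 0.11, adjusted p = 6.95e-07), and 8.33, 7.47 and 8.81 FPKM in the knockout and 18.6, 16.8 and 17.0 FPKM in the wild type with D3 (log2 difference -1.01, SE 0.11, adjusted p = 6.60e-09). FOXM1 had a log2 difference of -0.58 (adjusted p = 6.94e-11), and with D3 a ratio of means of 0.485 (adjusted p = 7.05e-16).

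A few genes went the other way. BUB1 had 36.1, 36.6 and 34.6 FPKM in the knockout and 24.7, 26.0 and 24.9 FPKM in the wild type (log2 difference 0.49, SE 0.042, adjusted p = 1.60e-10), and 13.0 ± 0.336 against 11.0 ± 0.154 FPKM with D3 (SD, n = 3 each; log2 difference 0.22). CENPA had 35.4, 37.7 and 33.9 FPKM in the knockout and 24.0, 27.5 and 26.2 FPKM in the wild type (log2 difference 0.45, SE 0.074, adjusted p = 8.98e-06), and rose by 0.29 with D3. ASPM, a spindle pole protein, rose by 0.29 without D3 (adjusted p = 0.0213) and by 0.51 with it (adjusted p = 0.000142). SPC25 (0.35) and NCAPH (0.20) rose without D3 and had differences of -0.10 and -0.17, short of the test, with it. The call of ASPM without D3 was lost in 4 of 6 fits that left out 1 compared library (adjusted p up to 0.123) and that of NCAPH in 2 of 6 (up to 0.15).

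By role, the 6 cyclins and regulators that fell without D3 were led by CDC25C (-0.58), CCNB1 (-0.57) and CCNA2 (-0.51), and all 8 fell with D3, led by CCNA2 (-0.79), CKS1B (-0.66) and CCNB1 (-0.56). Without D3, CDK1 (-0.06) and CDC25B (0.09) did not pass, nor did AURKB, TTK, KIF18B, KIF23 and ECT2 (between -0.17 and 0.12). CKS1B (-0.27) and CKS2 (-0.25) fell without D3, and CDK1 (-0.44) and CKS2 (-0.56) with it. CDCA8, the passenger protein borealin, had -0.60 and, with D3, -0.84, and PLK1 had -0.36 and -0.52. AURKA (-0.24) came next without D3 and AURKB (-0.47) with it. BUB1B (-0.38), BUB3 (-0.23) and MAD2L1 (-0.19) fell without D3, and MAD2L1 (-0.57), TTK (-0.56) and BUB1B (-0.52) were the largest checkpoint falls with it.

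All 4 genes of the anaphase-promoting complex group fell in both settings. CDC20, its mitotic activator, had 49.6, 54.2 and 58.0 FPKM in the knockout and 90.6, 87.1 and 94.6 FPKM in the wild type (log2 difference -0.74, SE 0.062, adjusted p = 1.10e-10), with no overlap. With D3 its difference was -0.87. CDCA3 had -0.72 and, with D3, -0.65, and PTTG1 -0.45 and -0.49. KIF20B (-0.49, lost in 1 of 6 fits that left out 1 library) and KIF4A (-0.48) followed KIF20A among 9 kinesins that fell without D3, and KIF11 (-0.73), KIF15 (-0.67) and KIF2C (-0.63) led the 11 that fell with it. NDC80 led the kinetochore genes that fell, at -0.58 without D3, before CENPE (-0.29), and at -0.63 with D3, before HJURP (-0.62) and NUF2 (-0.58). NCAPG (-0.49 and, with D3, -0.82), NCAPD2 (-0.45 and -0.66) and MKI67 (-0.37 and -0.61) fell in both, as did TPX2 (-0.68 and -0.85) and ANLN (-0.50 and -0.73). DLGAP5 (-0.51) came after HMMR and TPX2 without D3 and TACC3 (-0.62) with it. PRC1 had -0.21 and, with D3, -0.27.

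The magnetic exposure moved these genes by smaller amounts, mostly down. In KOA 32 of the 56 fell in exposed cells and 3 rose (median log2 difference -0.20), where 22.7% of all genes fell and 18.8% rose. In iR_KOA 35 fell and 1 rose (median -0.20), against 22.3% and 13.1% of all genes. In iR_WTA 27 fell and 1 rose (median -0.16), against 17.2% and 11.4%.

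Counts were lower in the backgrounds with D3. In iR_KOA_D3 15 fell and 5 rose (median -0.06), against 27.8% and 17.3% of all genes (45.1% either way), and in iR_WTA_D3 16 fell and 6 rose (median -0.05), against 26.5% and 15.3%. These shares, 15 and 16 of 56, are close to those of all genes that fell. All-gene medians in the 5 backgrounds lay between -0.05 and -0.02. Under median-of-ratios scaling the split in iR_WTA_D3 became 12 lower and 9 higher, with 2283 of 4761 calls over all genes higher, against 1852 of 5055 with FPKM as deposited. The same scaling gave 31 lower and 1 higher in iR_KOA, with 1862 of 3838 calls over all genes higher, against 1578 of 4272. In iR_KOA quantile normalization gave 29 lower and 1 higher, and scaling without mitochondrially encoded genes 26 and 1. A fit of the compared groups alone gave 23 and 1 there. Over all genes 1881 of 3907, 1702 of 3987 and 906 of 2131 calls were then higher. The count of calls in iR_KOA_D3 was 13 without replicate 2 of iR_KOA_D3_NE, against 20, and that in iR_WTA was 16 without replicate 1 of iR_WTA_EX, against 28. In KOA, mitochondrially encoded genes took 23.5 to 25.5% of all FPKM in exposed libraries and 27.2 to 29.7% in unexposed ones, and with libraries scaled without those genes 36 members fell and 2 rose, with 1563 of 5953 calls over all genes higher, against 2272 of 5020. Quantile normalization gave 20 lower and 2 higher in iR_WTA, with 1539 of 3085 calls over all genes higher, against 1381 of 3462.

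The libraries of the 2 groups did not overlap for 33 genes lower and 4 higher in KOA, 31 and 2 in iR_KOA, 19 and 5 in iR_KOA_D3, 30 and 3 in iR_WTA, and 16 and 11 in iR_WTA_D3. Over all genes the shares without overlap were 57.7%, 41.4%, 55.9%, 42.2% and 46.7%. No background shares its unexposed libraries with another. Of the 56, 10 genes (PLK1, BUB1, KIF2C, KIF11, KIF20B, KIF22, KIF23, NCAPH, TACC3 and PRC1) fell in all 5 backgrounds, as 7.87% of all genes did. Calls of BUB1, KIF20B and TACC3 were each lost in some fits that left out 1 library, as given below. Such fits were read only for the genes with the 3 largest differences of their role in a comparison. Calls of KIF22 and KIF23, and that of KIF2C in iR_KOA, were therefore not checked in this way. CKS2 rose in all 5, as 5.98% of all genes did, and 30 of the 56 had a negative difference in all 5, against 34.5% of all genes. Another 10, CDC25B, CKS1B, FOXM1, MAD2L1, KIF4A, KIF14, NCAPD2, HMMR, NUSAP1 and ECT2, passed in none, against 29.9% of all genes.

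**Figure D3:**
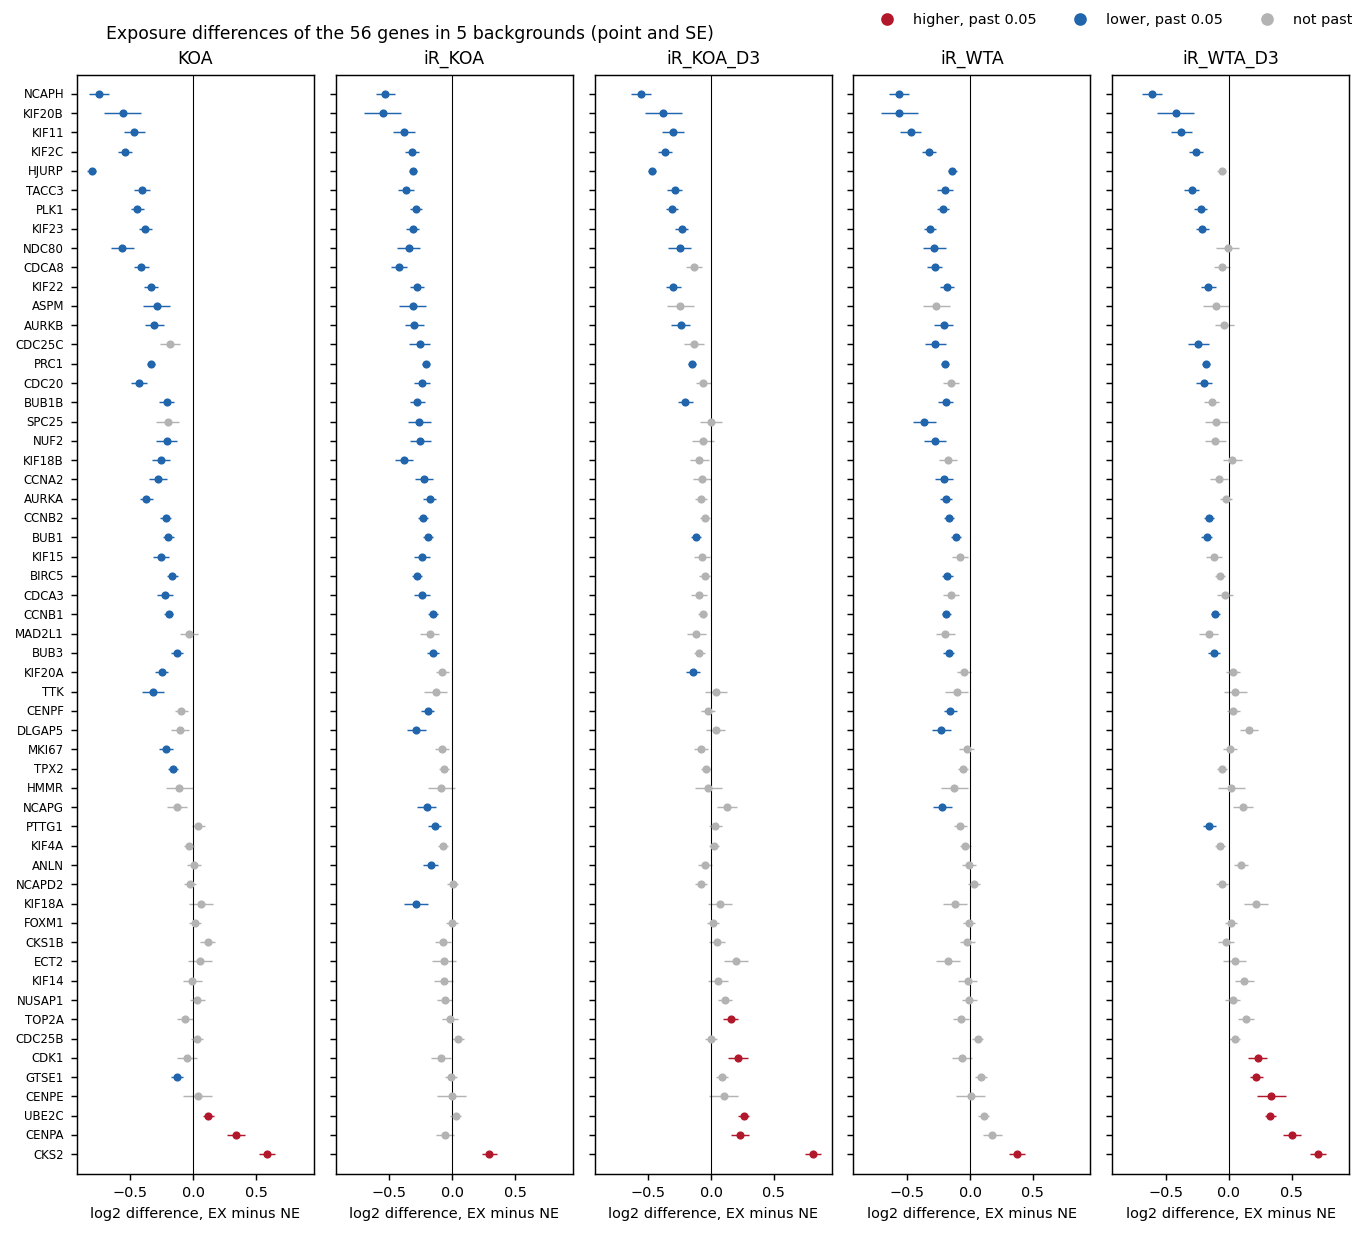
Log2 difference of each of the 56 genes, exposed minus unexposed, in the 5 backgrounds (point and SE; blue fell, red rose, grey did not pass at an adjusted p of 0.05), ordered by the mean over backgrounds. NCAPH is the top row, between -0.75 and -0.53, and CKS2 the bottom row, between 0.30 and 0.81.

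CKS2 rose most. It had 246, 240.5 and 231 FPKM in exposed and 159, 160.1 and 157 FPKM in unexposed KOA libraries, and 296, 279.7 and 281 FPKM in exposed and 249.8, 244 and 206 FPKM in unexposed iR_KOA libraries. With D3 the knockout had 179, 178 and 179 FPKM exposed and 104, 96.3 and 105 FPKM unexposed. No exposed library overlapped an unexposed one of its background, and the log2 differences were 0.59 (adjusted p = 4.07e-08), 0.30 (adjusted p = 0.000767) and 0.81 (adjusted p = 2.32e-10). Wild-type cells had 394, 356 and 329 FPKM exposed and 260.1, 284 and 287 FPKM unexposed (0.37, adjusted p = 7.47e-05), and with D3 257, 225 and 255 FPKM exposed and 151, 147 and 151 FPKM unexposed (0.71, adjusted p = 3.49e-09). CKS1B, which binds the same kinases, had log2 differences of 0.11, -0.07, 0.05, -0.02 and -0.02 in KOA, iR_KOA, iR_KOA_D3, iR_WTA and iR_WTA_D3, none past the test.

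Both B cyclins fell in all 3 backgrounds without D3. CCNB1 had 50.8, 51.1 and 54.2 FPKM in exposed and 61.2, 61.0 and 57.2 FPKM in unexposed KOA libraries (log2 difference -0.20, SE 0.036, adjusted p = 0.000109), and differences of -0.15 in iR_KOA, -0.19 in iR_WTA, -0.11 in iR_WTA_D3 and, short of the test, -0.07 in iR_KOA_D3. CCNB2 fell in KOA (-0.22), iR_KOA (-0.23), iR_WTA (-0.17) and iR_WTA_D3 (-0.16), and CCNA2 in KOA (-0.28), iR_KOA (-0.22) and iR_WTA (-0.20). CDC25C, an activator of CDK1, fell with differences of -0.26 in iR_KOA, -0.28 in iR_WTA and -0.24 in iR_WTA_D3. The CCNA2 call in iR_WTA was lost in 4 of 6 fits that left out 1 library (adjusted p up to 0.172), and those of CDC25C in 2, 3 and 2 of 6 (up to 0.0909). CDK1 went the other way in the D3 backgrounds: it had 19.0, 16.1 and 18.8 FPKM in exposed and 16.5, 14.1 and 15.4 FPKM in unexposed knockout libraries (log2 difference 0.21, SE 0.077, adjusted p = 0.0267), and 24.7, 23.2 and 26.8 FPKM in exposed and 21.8, 20.7 and 20.7 FPKM in unexposed wild-type libraries (log2 difference 0.23, SE 0.077, adjusted p = 0.0200). The groups overlapped in the knockout and not in the wild type, and each call was lost in 3 of 6 fits that left out 1 of its libraries (adjusted p up to 0.152 and 0.107). Without D3 it did not pass in KOA (-0.05), iR_KOA (-0.09) or iR_WTA (-0.06).

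FOXM1 had almost the same level with and without exposure, 33.2 ± 0.732 FPKM exposed and 32.9 ± 0.733 unexposed in KOA and 61.2 ± 1.74 exposed and 61.5 ± 2.52 unexposed in iR_WTA (SD, n = 3 each). Its log2 difference averaged over the 5 backgrounds was 0.01 (SE 0.021, adjusted p = 0.753). MKI67 fell in KOA, with 28.6, 29.5 and 29.6 FPKM exposed and 34.7, 34.0 and 33.5 FPKM unexposed and no overlap (log2 difference -0.21, SE 0.056, adjusted p = 0.00337). It did not pass in iR_KOA (-0.08), iR_KOA_D3 (-0.08), iR_WTA (-0.03) or iR_WTA_D3 (0.01).

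PLK1, the Polo kinase of mitotic entry, fell in every background. It had 35.6, 34.9 and 35.1 FPKM in exposed and 47.9, 47.3 and 49.6 FPKM in unexposed KOA libraries (log2 difference -0.44, SE 0.051, adjusted p = 1.08e-07), and 82.0, 88.8 and 91.4 FPKM in exposed and 101, 97.1 and 107 FPKM in unexposed iR_WTA libraries (log2 difference -0.22, SE 0.051, adjusted p = 0.00216). No exposed library reached an unexposed one in either. The differences were -0.29 in iR_KOA, -0.31 in iR_KOA_D3 and -0.22 in iR_WTA_D3. The other 4 kinase and passenger genes fell in all 3 backgrounds without D3, with CDCA8 at -0.41, -0.42 and -0.28, and AURKA at -0.37 in KOA. AURKB, the kinase of the passenger complex, also fell with D3 in the knockout, with differences of -0.30 in iR_KOA, -0.21 in iR_WTA and -0.24 in iR_KOA_D3. The AURKB calls in iR_WTA and iR_KOA_D3 were lost in 4 and 1 of 6 fits that left out 1 library (adjusted p up to 0.202 and 0.0958). None of these 4 passed in iR_WTA_D3, where they lay between -0.07 and -0.02.

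In the checkpoint group BUB1 fell in all 5 backgrounds, with differences of -0.20, -0.19, -0.12, -0.11 and -0.18 in KOA, iR_KOA, iR_KOA_D3, iR_WTA and iR_WTA_D3. Its calls in iR_KOA_D3 and iR_WTA were lost under median-of-ratios scaling (adjusted p = 0.0534 and 0.0999) and in 4 and 5 of 6 fits that left out 1 library (adjusted p up to 0.121 and 0.162). BUB1B, which inhibits the anaphase-promoting complex, fell with differences of -0.21, -0.28, -0.20 and -0.19 in the first 4. TTK, the kinase that starts checkpoint signalling, fell in KOA (-0.32), and BUB3 fell with differences of -0.13 in KOA, -0.15 in iR_KOA, -0.17 in iR_WTA and -0.12 in iR_WTA_D3. The BUB3 calls in iR_KOA and iR_WTA_D3 were lost in 4 and 5 of 6 such fits (adjusted p up to 0.0766 and 0.295), and those of BUB1B in iR_KOA_D3 and iR_WTA in 1 of 6 each.

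CDC20 had 25.8, 27.2 and 25.7 FPKM in exposed and 33.6, 36.5 and 37.1 FPKM in unexposed KOA libraries, which did not overlap (log2 difference -0.43, SE 0.062, adjusted p = 4.08e-06), and also fell in iR_KOA (-0.24) and iR_WTA_D3 (-0.20). CDCA3 fell in KOA (-0.23) and iR_KOA (-0.24), and PTTG1 in iR_KOA (-0.14) and iR_WTA_D3 (-0.16). The PTTG1 calls were lost in 4 and 2 of 6 fits that left out 1 library (adjusted p up to 0.257 and 0.0882), and that of CDC20 in iR_WTA_D3 in 1 of 6 (up to 0.108). UBE2C, the enzyme that supplies ubiquitin to the complex, went the other way: it had 25.2, 25.5 and 25.0 FPKM exposed and 20.4, 21.0 and 21.4 FPKM unexposed in iR_KOA_D3 (log2 difference 0.26, SE 0.044, adjusted p = 3.37e-05), and 38.5, 34.2 and 36.1 FPKM exposed and 29.0, 30.1 and 26.9 FPKM unexposed in iR_WTA_D3 (log2 difference 0.33, SE 0.044, adjusted p = 1.73e-06). Exposed libraries lay above all unexposed ones in both. It also rose by 0.12 in KOA, a call lost in 4 of 6 fits without 1 library (adjusted p up to 0.105).

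The kinesins KIF2C, KIF11, KIF20B, KIF22 and KIF23 fell in all 5 backgrounds. KIF20B, a kinesin of late cytokinesis, had 4.86, 4.96 and 4.78 FPKM in exposed and 8.22, 8.01 and 6.82 FPKM in unexposed KOA libraries (log2 difference -0.56, SE 0.15, adjusted p = 0.00324), and differences of -0.55 in iR_KOA, -0.38 in iR_KOA_D3, -0.56 in iR_WTA and -0.42 in iR_WTA_D3. The call in iR_KOA_D3 was lost in 5 of 6 fits without 1 library (adjusted p up to 0.157), and that in iR_WTA_D3 in 3 of 6 (up to 0.151). KIF11, the motor that pushes spindle poles apart, had 23.7, 22.7 and 28.0 FPKM in exposed and 32.7, 37.5 and 34.1 FPKM in unexposed iR_WTA libraries, without overlap (log2 difference -0.47, SE 0.086, adjusted p = 0.000162), and fell with differences of -0.47 in KOA, -0.38 in iR_KOA, -0.30 in iR_KOA_D3 and -0.38 in iR_WTA_D3. KIF2C, a microtubule depolymerase at centromeres, fell with differences of -0.55 in KOA, -0.32 in iR_KOA, -0.37 in iR_KOA_D3, -0.32 in iR_WTA and -0.26 in iR_WTA_D3. KIF23, the centralspindlin motor whose promoter is printed above, had 22.5, 22.6 and 23.9 FPKM in exposed and 29.5, 31.3 and 29.9 FPKM in unexposed KOA libraries (log2 difference -0.38, SE 0.051, adjusted p = 1.38e-06). KIF18B fell in KOA (-0.26) and iR_KOA (-0.38), and KIF22 in all 5 backgrounds, with -0.30 in iR_KOA_D3. KIF15 fell in KOA (-0.25) and iR_KOA (-0.24), KIF20A in KOA (-0.25) and iR_KOA_D3 (-0.14), and KIF18A in iR_KOA (-0.29), where its groups overlapped.

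The kinetochore and centromere genes split. HJURP had 26.4, 26.4 and 27.0 FPKM in exposed and 47.1, 46.6 and 48.0 FPKM in unexposed KOA libraries (log2 difference -0.81, SE 0.034, adjusted p = 8.47e-16), the largest fall of the 56 there, and 11.3, 11.2 and 12.1 FPKM in exposed and 16.4, 16.3 and 16.3 FPKM in unexposed iR_KOA_D3 libraries (log2 difference -0.47, SE 0.034, adjusted p = 6.34e-11). Neither pair of groups overlapped. It also fell in iR_KOA (-0.31) and iR_WTA (-0.14), and had -0.06, short of the test, in iR_WTA_D3. CENPA, the histone that HJURP loads, rose in 3 of the 5 backgrounds, with 29.8, 30.7 and 28.4 FPKM in exposed and 23.8, 25.3 and 20.7 FPKM in unexposed KOA libraries (log2 difference 0.34, SE 0.074, adjusted p = 0.000553), 16.0, 15.9 and 16.5 FPKM in exposed and 12.4, 10.8 and 10.2 FPKM in unexposed iR_WTA_D3 libraries (log2 difference 0.50, SE 0.074, adjusted p = 6.49e-06), and 0.23 in iR_KOA_D3. It did not pass in iR_KOA (-0.06) or iR_WTA (0.18). CENPE rose in iR_WTA_D3 (0.34), and CENPF fell in iR_KOA (-0.20) and iR_WTA (-0.16). NDC80 fell with differences of -0.56 in KOA, -0.35 in iR_KOA, -0.25 in iR_KOA_D3 and -0.28 in iR_WTA, SPC25 in iR_KOA (-0.26) and iR_WTA (-0.36), and NUF2 in KOA (-0.21), iR_KOA (-0.25) and iR_WTA (-0.28). The NDC80 calls in iR_KOA_D3 and iR_WTA were each lost in 4 of 6 fits that left out 1 library (adjusted p up to 0.161 and 0.0934). Those of SPC25 in iR_KOA (3 of 6, up to 0.210), NUF2 in iR_WTA (2 of 6, up to 0.0787), CENPE in iR_WTA_D3 (2 of 6, up to 0.146) and CENPA in iR_KOA_D3 (2 of 6, up to 0.0917) were also lost in some.

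NCAPH, a condensin I subunit, fell most on average over the 5 backgrounds. It had 5.16, 5.79 and 5.23 FPKM in exposed and 9.98, 9.92 and 9.35 FPKM in unexposed KOA libraries (log2 difference -0.75, SE 0.078, adjusted p = 2.42e-08), and 2.84, 3.05 and 2.88 FPKM in exposed and 5.21, 4.98 and 4.77 FPKM in unexposed iR_WTA_D3 libraries (log2 difference -0.61, SE 0.078, adjusted p = 8.81e-07). The groups did not overlap in either, and the differences were -0.53, -0.56 and -0.56 in iR_KOA, iR_KOA_D3 and iR_WTA. Of its partners in condensin I, NCAPD2 passed in no background (differences between -0.08 and 0.03) and NCAPG fell in iR_KOA (-0.20) and iR_WTA (-0.22) with calls lost in 3 and 4 of 6 fits without 1 library. The difference between these subunits was not tested. TOP2A, which untangles sister chromatids, rose in iR_KOA_D3 (0.15, adjusted p = 0.0469), a call lost in 4 of 6 such fits.

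Of the spindle factors TACC3, which bundles kinetochore fibres, fell in all 5 backgrounds, with differences of -0.41, -0.37, -0.29, -0.20 and -0.30 in KOA, iR_KOA, iR_KOA_D3, iR_WTA and iR_WTA_D3. ASPM fell in KOA (-0.29) and iR_KOA (-0.31), calls lost in 4 and 3 of 6 fits without 1 library, TPX2 in KOA (-0.16), and DLGAP5 in iR_KOA (-0.28) and iR_WTA (-0.23). The calls of TACC3 and DLGAP5 in iR_WTA were each lost in 3 of 6 such fits (adjusted p up to 0.115 and 0.119). GTSE1, a microtubule-associated protein, was the one gene called both ways, at -0.13 in KOA and 0.22 in iR_WTA_D3, where 1.76% of all genes were called both ways. PRC1, the crosslinker of the central spindle, had -0.34, -0.21, -0.15, -0.20 and -0.18 in the same order. ANLN fell in iR_KOA (-0.17), a call lost in 3 of 6 such fits, and ECT2 passed in no background.

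Averaged over the 5 backgrounds, 37 of the 56 fell, 4 rose and 15 did not pass (median -0.14), where 42.6% of all genes fell and 25.2% rose (67.8% either way; all-gene median -0.04). The split was 33 lower and 7 higher under median-of-ratios scaling, with 3580 of 7925 calls over all genes higher, against 3048 of 8197. Under quantile normalization it was 33 and 5, with 3563 of 7996. With FPKM as deposited, NCAPH (-0.60, SE 0.035), KIF20B (-0.50), KIF11 (-0.40), KIF2C (-0.36) and HJURP (-0.36) fell most. CKS2 (0.55, SE 0.028), CENPA (0.24), UBE2C (0.17) and GTSE1 (0.05, adjusted p = 0.0427) rose, the last a call lost in 18 of 30 fits that left out 1 library. The remaining named falls were TACC3 (-0.31), PLK1 (-0.30), NDC80 (-0.29), CDCA8 (-0.26), ASPM (-0.24), CDC25C, CDC20, AURKB and PRC1 (-0.22 each), BUB1B (-0.21), CCNA2 (-0.17), BUB1 (-0.16), CDCA3 (-0.15), MAD2L1 (-0.14), and MKI67 and DLGAP5 (-0.08 each), the last lost in 7 of those 30 fits.

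Whether the exposure difference itself differed between backgrounds was tested as an interaction, and few genes passed. Between genotypes no member passed without D3 (0 of 56, against 0.538% of all genes, 0.273% in the positive direction; 2 had an unadjusted p under 0.05 in limma, and 0 passed with limma-voom on recovered reads). With D3 HJURP passed, falling further in the knockout (log2 difference -0.41, SE 0.048, adjusted p = 8.21e-06; of all genes 2.38% passed, 1.14% in that direction and 1.24% in the other). Between iR and no iR in the knockout, HJURP fell less with iR (log2 difference 0.50, SE 0.048, adjusted p = 1.73e-07) and CENPA had a more negative difference with iR (log2 difference -0.40, SE 0.10, adjusted p = 0.0225), 2 of 56 against 5.08% of all genes. The call of CENPA was lost in 5 of 12 fits without 1 library and when libraries were scaled without mitochondrially encoded genes (adjusted p = 0.102). Under that scaling 7 members passed, all positive, with 819 of 1062 calls over all genes positive, against 201 of 614 with FPKM as deposited. The count was 4 under quantile normalization, with 292 of 655 calls over all genes positive, and 1 without replicate 1 or 2 of KOA_EX, replicate 3 of KOA_NE, replicate 2 of iR_KOA_EX or replicate 2 of iR_KOA_NE.

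Between D3 and no D3 in the knockout CKS2 rose more with D3 (log2 difference 0.51, SE 0.089, adjusted p = 0.00122), and BIRC5 (log2 difference 0.23, SE 0.061, adjusted p = 0.0318) and UBE2C (log2 difference 0.23, SE 0.062, adjusted p = 0.0358) moved the same way, 3 of 56 against 4.14% of all genes. The calls of BIRC5 and UBE2C were each lost in 8 of 12 fits without 1 library. The count was 1 without replicate 1 of iR_KOA_D3_EX, replicate 2 of iR_KOA_D3_NE or replicate 1 of iR_KOA_NE, and 8 without replicate 3 of iR_KOA_NE. With other scalings 1 negative call appeared, at 2 positive and 1 negative under median-of-ratios scaling or without mitochondrially encoded genes, and 3 and 1 under quantile normalization. Without mitochondrially encoded genes 145 of 848 calls over all genes were positive, against 210 of 500. In the wild type no member passed (0 of 56, against 1.67% of all genes; 14 had an unadjusted p under 0.05 in limma, and 2 passed with limma-voom), CKS2 being at 0.33 (adjusted p = 0.0522). That count was 4 without replicate 2 of iR_WTA_D3_EX and 1 without replicate 1 of iR_WTA_EX or of iR_WTA_NE.

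Other genes of the same processes were read from a list of 81. Averaged over backgrounds, 58 of them fell under exposure and 6 rose (median -0.14), where 42.6% of all genes fell and 25.2% rose. MIS12, a kinetochore scaffold, rose most (log2 difference 1.02, SE 0.039, adjusted p = 3.37e-17), and FAM83D, a spindle protein, rose by 0.33. CDKN1A, also on the list, rose by 0.51 and is a CDK inhibitor rather than a gene that carries out mitosis. The largest falls by role were SPC24 (-0.49) and CENPU (-0.43) at the kinetochore, the inhibitory kinase PKMYT1 (-0.49) and the centriole kinase PLK4 (-0.42), separase ESPL1 (-0.46) with the condensin II subunits NCAPD3 (-0.25) and NCAPH2 (-0.18), the anaphase-promoting complex subunits ANAPC4 (-0.42), CDC16 (-0.29) and ANAPC5 (-0.24), and ARHGAP11A (-0.37) and CKAP2L (-0.34). With D3, 77 of the 81 fell in the knockout and 75 in the wild type, and none rose, where 34.5% and 26.3% of all genes fell. In the knockout against the wild type 52 fell and 5 rose without D3 (37.4% and 27.9% of all genes), and 72 fell and 1 rose with it (44.3% and 24.8%). With iR 43 rose and 4 fell, against 18.7% and 19.8% of all genes.

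Genes of DNA replication, which act in S phase, were counted beside them from a list of 41. Under exposure 38 of these fell and 1 rose on average (median -0.27, against -0.14 for the 56), where 42.6% of all genes fell and 25.2% rose. With D3 all 41 fell in both genotypes (median -1.12 in the knockout and -0.50 in the wild type, against -1.26 and -1.06 for the 56), as did 34.5% and 26.3% of all genes. In the knockout against the wild type 30 fell and 4 rose without D3 (37.4% and 27.9% of all genes), and 39 fell and 1 rose with it (median -0.85; 44.3% and 24.8% of all genes). With iR 23 of the S-phase genes fell and 1 rose (median -0.15, against 0.43 for the 56), where 19.8% of all genes fell and 18.7% rose. The difference between the lists was not tested.

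**Figure D4:**
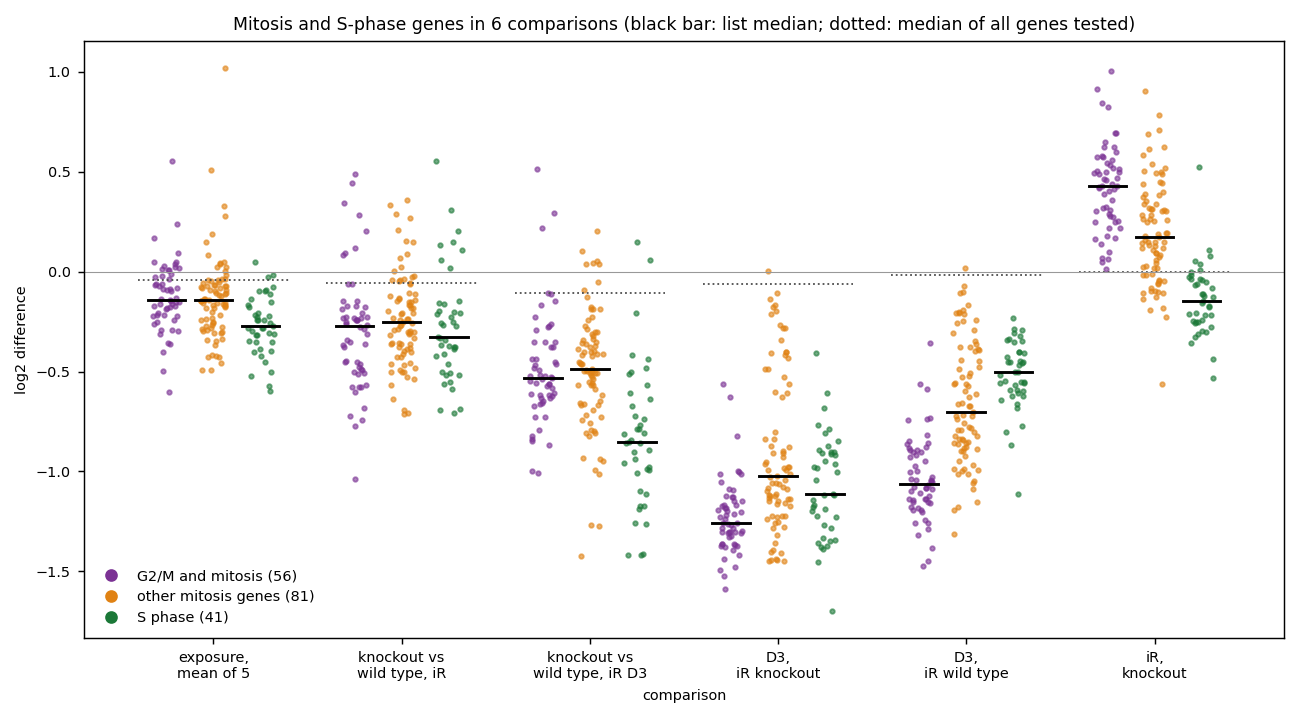
Log2 differences of the 56 genes, the 81 other mitosis genes and the 41 S-phase genes in 6 comparisons; each point is a gene, the black bar is the list's median and the dotted line the median of all 12086 genes tested. The medians of all 3 lists lie below 0 with D3, while with iR the medians are 0.43 for the 56 genes and -0.15 for S-phase genes.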

How the data were processed

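Per the submitters' processing notes, reads were handled with fastp, HISAT2 and HTSeq on GRCh38, with no versions or settings given, and the authors deposited 1 FPKM value per gene and library. Values that are whole multiples of 1 read within a tolerance of 0.01 in all 26801 genes gave each library's depth. Columns were matched to samples by title, and 6 further value columns that match no sample were not used. The 12086 genes that reached 1 FPKM in 3 or more libraries were tested with limma 3.58.1 in R 4.3.3 (moderated, two-sided, with trend) on log2(FPKM + 1), all 10 groups in 1 fit without covariates, with Benjamini-Hochberg adjustment over all tested genes and a threshold of 0.05. A fold change on this scale understates the change of low genes. Comparisons were the exposure in 5 backgrounds and on average, D3, iR, genotype and the interactions between them, 17 in all.

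In each comparison the 3 called genes with the largest difference in each role were named, with those that went against their role, and the 5 largest for interactions. CCNB1, CDK1, FOXM1, MKI67, CKS1B, CKS2 and the genes with the 5 highest and 5 lowest means were always described. The 56 genes, the 81 other mitosis genes, the 41 S-phase genes and the comparisons were chosen with earlier results of these data known. Alternatives were a pseudocount of 0.1, no filter on low values, median-of-ratios scaling, quantile normalization, a fit of the compared groups alone, the replicate number as a block and leaving out each library. Chosen after seeing the data were limma-voom on the recovered reads and scaling without the 13 mitochondrially encoded genes. The code was tested on simulated data.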

Additional observations from a re-analysis of the deposited data

Results flagged for a closer look

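The comparisons below stand out because an effect differed between groups by the test of the difference itself (limma's interaction term, Benjamini-Hochberg over all genes). For the exposure, 1 gene differed between genotypes with D3, HJURP at -0.41 (knockout minus wild type), where 2.38% of all genes did. Between iR and no iR in the knockout 2 genes differed, HJURP at 0.50 and CENPA at -0.40, against 5.08% of all genes, so the count is no higher than the background, and the CENPA call was lost in 5 of 12 fits that left out 1 library. Between D3 and no D3 in the iR knockout 3 genes differed, CKS2 at 0.51, BIRC5 at 0.23 and UBE2C at 0.23, against 4.14% of all genes, a share close to the background. The BIRC5 and UBE2C calls were each lost in 8 of 12 fits that left out 1 library. For D3 in unexposed iR cells 25 genes differed between genotypes, with the most negative values (knockout minus wild type) in KIF18B (-0.46), SPC25 (-0.45), HJURP (-0.44), KIF15 (-0.43) and FOXM1 (-0.42), where 17.5% of all genes differed. That count was 12 under median-of-ratios scaling, 10 when scaled without mitochondrially encoded genes, 15 without the filter on low values and 14 to 20 in the fits that left out 1 library, of which 1 of 12 lost the SPC25 call. HJURP thus appears in 3 of these 4 comparisons, which share libraries. All values are differences of log2 differences.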

How the results depend on the processing

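No named gene changed direction under any alternative run, but the split of some counts by direction moved, as given above. The named genes were picked for large differences past the threshold in these same data, so a kept direction was likely from the start. Counts of the 56 genes past the threshold stayed within 1.5 times the count reported for the 5 exposure comparisons, their average, both genotype comparisons, both D3 comparisons and iR under every alternative that kept all libraries. Interactions moved more, and the cause was not tested. The exposure by iR count was 1 without the filter on low values, 4 under quantile normalization and 7 when scaled without mitochondrially encoded genes, against 2. That of exposure by D3 in the knockout was 1 without the filter and 1 in a fit of the compared groups alone, against 3. In the wild type it was 2 under median-of-ratios scaling, 1 with the replicate block and 2 with limma-voom, against 0. That of D3 by genotype was 15 without the filter, 12 under median-of-ratios scaling and 10 without mitochondrially encoded genes, against 25.

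Leaving out 1 library at a time gave 30 to 35 genes for the exposure in KOA, 25 to 37 in iR_KOA, 13 to 21 in iR_KOA_D3, 16 to 34 in iR_WTA, 17 to 22 in iR_WTA_D3 and 38 to 43 on average. It gave 42 to 48 and, with D3, 51 to 52 genes for genotype, 56 to 56 for D3 in both genotypes and 47 to 49 for iR. For interactions it gave 0 to 0 and, with D3, 1 to 1 for exposure by genotype, 1 to 3 for exposure by iR, 1 to 8 and 0 to 4 for exposure by D3 in the knockout and the wild type, and 14 to 20 for D3 by genotype.

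Of 283 calls of named genes in their comparisons, 27 were lost without the filter, 14 under median-of-ratios scaling and 21 under quantile normalization. The losses were 2 with the block, 2 with limma-voom, 16 without mitochondrially encoded genes and 0 with a pseudocount of 0.1. The fit of the compared groups, not run for the averaged exposure, lost 14 calls and kept 244. Over all fits that left out 1 library, 159 such calls were lost and 2205 kept. Calls quoted in the text for genes that were not named by the rule in that comparison were not followed in any of these fits. Replicate numbers were not taken to pair libraries, since not every same-numbered pair correlated above 0.1: deviations of same-numbered libraries correlated at -0.45 to 0.344 (median 0.015 over 135 pairs), against a median of -0.011 for different numbers. Exposed and unexposed libraries of 1 background with the same number correlated at -0.239 to 0.306 (median 0.087 over 15 pairs), and 14 of 30 libraries matched their own number best. With only 3 numbers to match, these values do not exclude a pairing. Depth limits the lowest genes, which rest on as few as 158 reads per library, and 3 libraries a group limit all comparisons.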
